A study of Mus musculus with 16 samples.

Results

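S98/102 clone 2 was compared with S98/102 clones 1 and 4, the other two clonal lines made with the same mutant of human *SOX2*. The 3 lines were picked as columns of the array table by their names, 2 arrays each, so clone 2 held 2 and clones 1 and 4 held 4 of the 16 arrays in the series. All 6 arrays carry RNA of *Sox2*-null ESCs on a 129/Ola background, whose mouse *Sox2* transgene is shut off by doxycycline (1 μg/mL) and which received a PiggyBac vector with the mutant cDNA and hygromycin resistance (selection at 300 μg/mL). The labels name these lines *Sox2* 95 mutants, and they were read as S98/102 from the study's account of its arrays. The other lines were SWT clones 4 and 5, rescued with wild-type human *SOX2*, S113 clones 4 and 5, rescued with another mutant, and TSS, in which the mouse transgene was kept on without doxycycline. A line here is 1 picked colony, and the labels do not say whether its 2 arrays hold separate cultures, so the spread between arrays may be technical.

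SOX2 pairs with OCT4 (encoded by *Pou5f1*) on neighbouring DNA sites and keeps the pluripotency network of ESCs running. When this network weakens, mouse ESCs can turn to extraembryonic endoderm, a lineage that lays down basement membrane, or to trophectoderm, the precursor of the placenta. Clonal lines selected under the same mutant may settle at different points between these states, and comparing them shows how much of a mutant's profile is shared between its clones.

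The arrays of the 3 clones were alike in detection but not in intensity. Before normalization the median scanner intensity was 112.7 and 100.1 in clone 2, under the 114.8 to 117.2 of clones 1 and 4. The lower value of clone 2 was the lowest of all 16 arrays. How far this enters the differences of clone 2 was not tested. Between 49.3% and 51.7% of probes were detected, and the paired arrays of a clone correlated across genes at r between 0.9963 and 0.9972. Levels below are normalized log2 values, and differences are log2 differences. The clones were not equally far apart. Over the 9303 genes tested, the root mean square difference was 0.31 between clones 1 and 4, 0.73 between clones 2 and 1 and 0.65 between clones 2 and 4. It was 0.31 between the SWT clones and 0.35 between the S113 clones. Clone 2 was also farther from the SWT mean (1.11) than clone 1 (0.75) or clone 4 (0.81). Clones 1 and 4 differed at least 2-fold in 108 genes, clones 2 and 1 in 1252 and clones 2 and 4 in 987.

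Clone 2 was set against the mean of clones 1 and 4 with limma, with the 2 arrays of a line averaged and the spread between lines pooled over clones 1 and 4, the SWT clones and the S113 clones. Clone 2 is 1 line and was taken to vary like the others. At a Benjamini-Hochberg adjusted p under 0.05, 1608 of 9303 genes (17.3%) differed, 846 (9.09%) higher and 762 (8.19%) lower in clone 2, and 3196 had an unadjusted p under 0.05. For every one of the 1608 genes both arrays of clone 2 lay beyond all 4 arrays of clones 1 and 4, as they did for 5756 of all genes. The median difference was 1.12 among the genes called higher and −0.96 among those called lower. The counts rested on having both other clones. Without clone 1 they were 195 higher and 146 lower, without clone 4 510 and 400, and without either SWT clone 617 and 504. With each array only shifted to a common median, the median difference over all genes moved from −0.05 to −0.15, and 651 genes were called higher and 1349 lower, so that the share of higher calls went from 52.6% to 32.6%.

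Against the spread between arrays only, 1861 genes (20%) were higher and 2098 (22.6%) lower in clone 2 than in clone 1 and in clone 4 alike. The same test called 1441 genes (15.5%) between clones 1 and 4, 635 higher and 806 lower in clone 1, a count that went to between 757 and 1415 when 1 array of the 3 clones was left out. It was lowest without array 2 of clone 1, and 806 and 783 without array 1 of clone 1 or array 2 of clone 4.

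**Figure D1:**
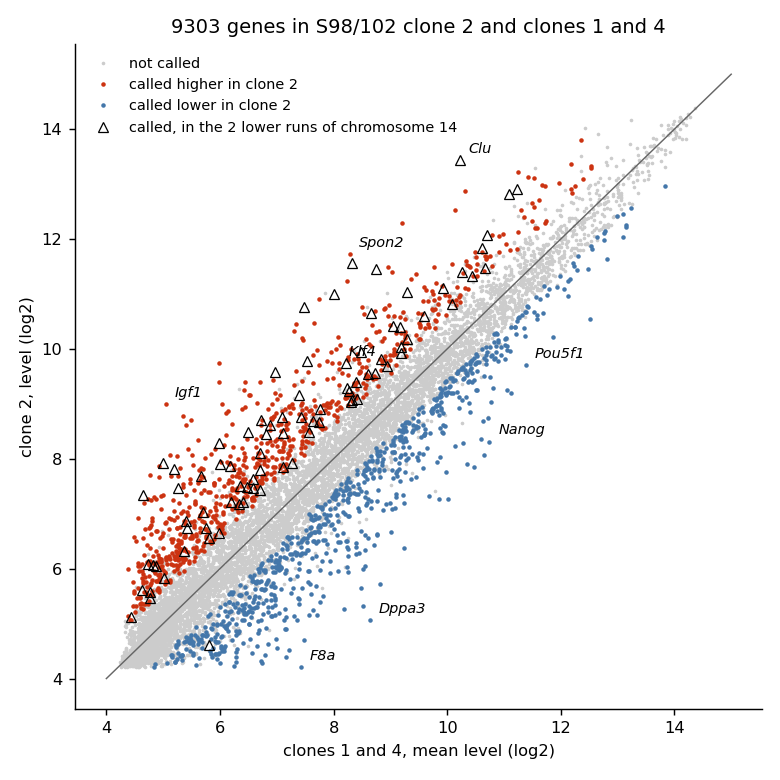
Mean level (log2) of 9303 genes in S98/102 clones 1 and 4 (horizontal axis) and in clone 2 (vertical axis), with the line of equal levels. Red and blue points are genes called higher (846) and lower (762) in clone 2, except that called genes in the 2 lower runs of chromosome 14 are drawn as open triangles; of the triangles all but *Phf11a* are higher in clone 2.

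Genes of the pluripotency network were lower in clone 2. Of 20 measured genes of naive pluripotency, 12 were called lower and 1 higher, with a median difference of −1.28 against −0.05 over all genes. Over all genes 9.09% were called higher and 8.19% lower. Against the spread between arrays 20% were higher and 22.6% lower. The list counts below are to be read beside these shares. The medians from SWT were −2.34 in clone 2, −0.80 in clone 1 and −0.92 in clone 4. In bulk RNA, fewer cells that express a gene and less RNA per cell cannot be told apart.

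*Pou5f1*, the OCT4 gene, read 9.72 and 9.68 on the arrays of clone 2, 11.54 and 11.55 in clone 1, 11.22 and 11.21 in clone 4, and 11.50 and 11.60 in the SWT clones. Clone 1 was at the SWT level, clone 4 slightly and clone 2 far under it, and clone 2 differed from clones 1 and 4 by −1.68 (standard error 0.19, adjusted p = 0.0054, limma). *Nanog*, which encodes a core pluripotency factor, read 8.20 and 8.43 in clone 2, 10.71 and 10.49 in clone 1, 10.78 and 10.98 in clone 4, and 11.61 and 11.90 in the SWT clones. Its order was SWT, then clones 1 and 4, then clone 2, which stood 5.38-fold under clones 1 and 4 (log2 −2.43, standard error 0.20, adjusted p = 0.0033, limma). *Esrrb*, an orphan nuclear receptor of the naive state, read 8.65 and 8.73 in clone 2 against 10.47 to 10.87 on the 4 arrays of clones 1 and 4 and 12.22 and 12.24 in SWT. *Zfp42* (Rex1), a marker of undifferentiated ESCs, read 8.02 and 8.03 in clone 2 and between 9.33 and 9.51 in clones 1 and 4. *Esrrb* and *Zfp42* were called lower, by −1.95 (adjusted p = 0.0036, limma) and −1.44 (adjusted p = 0.015, limma). *Utf1*, a chromatin-associated factor of ESCs, read 7.25 and 7.14 in clone 2, 8.79 and 8.74 in clone 1 and 8.50 and 8.32 in clone 4, a difference of −1.40 (adjusted p = 0.010, limma).

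The other naive genes called lower were *Tcl1* (−2.60), *Nr5a2* (−2.05), *Fbxo15* (−1.80), *Tdgf1* (−1.52), *Dppa4* (−1.17), *Klf2* (−1.08) and *Dppa3*. *Dppa3* (Stella), which protects maternal methylation in the early embryo, read 4.79 and 5.33 in clone 2, 8.22 and 8.43 in clone 1, 9.02 and 8.87 in clone 4, and 9.28 and 10.42 in the SWT clones. The difference was −3.58 with a standard error of 0.77 (adjusted p = 0.027, limma), and it was not called without clone 1 or clone 4 (adjusted p = 0.090 and 0.096). *Fgf4*, a growth factor of ESCs, was not detected on either array of clone 2 (4.28 and 4.32) and was near the floor in clones 1 and 4 (4.49 to 4.75), while SWT read 6.07 and 5.88. It did not pass the test (difference −0.35, adjusted p = 0.20, limma). *Dppa5a* and *Sall4* differed by −0.38 and −0.57 without passing it.

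*Klf4* went the other way. This reprogramming factor and target of LIF signalling read 9.75 on both arrays of clone 2, 8.08 and 7.87 in clone 1, 8.26 and 8.21 in clone 4, 8.66 and 8.63 in the SWT clones and 9.31 and 9.45 in the S113 clones. Clone 2 was the highest of the 8 lines, by 1.64 over clones 1 and 4 (standard error 0.18, adjusted p = 0.0050, limma). Of 14 measured genes of the LIF and STAT3 response, *Klf4*, *Stat3* (0.77), *Ocln* (0.85) and *Lifr* (0.64), the LIF receptor, were higher and *Bcl3* (−0.68) was lower in clone 2.

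**Figure D2:**
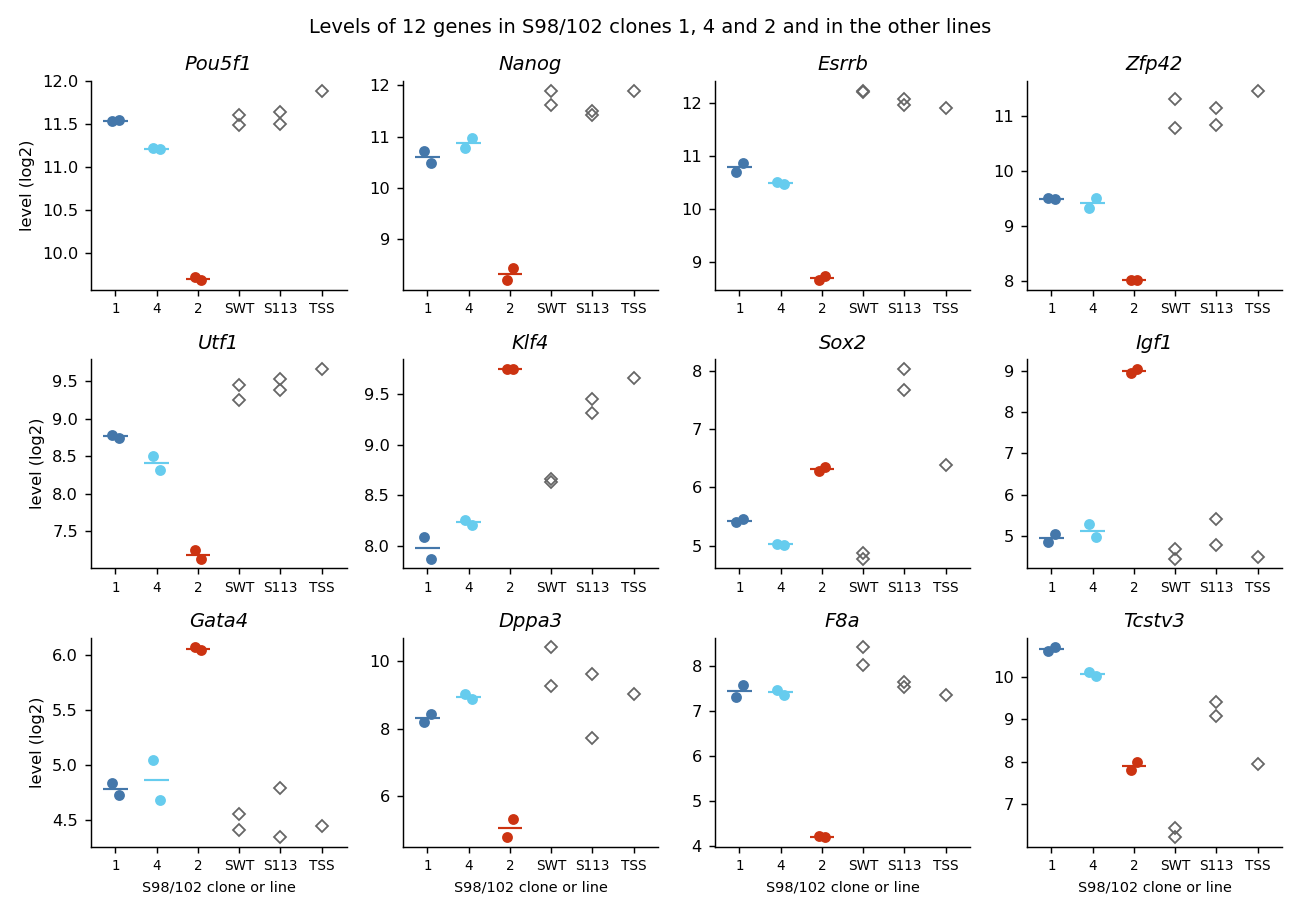
Levels (log2, each panel with its own axis) of 12 genes on the 2 arrays of S98/102 clones 1, 4 and 2 (filled points, the bar is their mean), with the line means of the 2 SWT clones, the 2 S113 clones and TSS (open diamonds). In each panel the 2 points of clone 2 lie outside the 4 points of clones 1 and 4, below them for *Pou5f1* and *Nanog* and above them for *Klf4* and *Igf1*. The same holds for 5756 of the 9303 genes tested (61.9%), so it does not set these 12 apart.

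The study works with degenerate words for juxtaposed and spaced OCT4 and SOX2 sites, so promoters of the tested genes were searched for these words on both strands, in the window from 250 bases before to 50 after each RefSeq start (GRCm38.p6). Of 7590 tested genes with a promoter sequence, 44 (0.58%) held the Hoxb1-like word, 6 of 679 genes called higher (0.884%) and 3 of 612 called lower (0.49%). The 3 called lower were *Nanog*, *Prps1*, which encodes a phosphoribosyl pyrophosphate synthetase, and *Cwf19l2*, and *Man2b1*, a lysosomal mannosidase, was among those called higher. These 4 are shown because they set the *Nanog* site, the named gene of the pluripotency list that holds the word, beside matches in genes of other kinds. Capitals mark the matching letters. The windows are at chr6:122707388-122707452, chrX:140456403-140456467, chr9:3403986-3404050 and chr8:85083072-85083136, all of the plus strand, which is the strand of each gene.
Nanog: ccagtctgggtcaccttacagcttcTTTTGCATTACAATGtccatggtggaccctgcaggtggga
Prps1: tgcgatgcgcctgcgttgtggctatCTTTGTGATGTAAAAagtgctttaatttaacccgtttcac
Cwf19l2: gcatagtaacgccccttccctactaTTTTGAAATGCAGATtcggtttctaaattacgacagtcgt
Man2b1: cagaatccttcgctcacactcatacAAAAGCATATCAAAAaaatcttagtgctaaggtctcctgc
The word lies in reverse orientation in *Nanog* and *Man2b1*. The Utf1-like word was found in 10 promoters of tested genes (0.132%) and the Fgf4-like word in 26 (0.343%). A match of letters is a description and not a bound site, and none of these windows reaches the distal enhancers of the genes. *Prps1* read 9.12 and 8.91 in clone 2 and 10.25 to 10.49 in clones 1 and 4. *Cwf19l2* read 7.82 and 7.87 in clone 2 and 8.51 to 8.70 in clones 1 and 4.

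The probe for *Sox2* read 6.29 and 6.35 in clone 2, 5.41 and 5.45 in clone 1, 5.03 and 5.01 in clone 4, 4.77 and 4.88 in the SWT clones, 7.67 and 8.04 in the S113 clones and 6.39 in TSS. Clone 2 was above the other S98/102 clones and near TSS, with a difference of 1.09 (standard error 0.24, adjusted p = 0.027, limma). The call was lost without clone 1 (adjusted p = 0.055), clone 4 (0.079) or either SWT clone (0.050). The files do not give the probe's position, so the mouse transgene and the human construct cannot be told apart by it, and a second *Sox2* probe was detected on none of the 6 arrays. Of 9 measured Sox family genes, 4 were called higher in clone 2 and none lower, with a median difference of 1.09 that is also the value of *Sox2* itself. *Sox5*, a transcription factor of cartilage and neural development, read 7.19 and 7.33 in clone 2 and 4.45 to 5.02 in clones 1 and 4, and its difference was 2.53 (adjusted p = 0.0036, limma). *Sox21* was higher by 2.76 (10.22 and 10.18 in clone 2, 7.06 in clone 1 on both arrays, 7.90 and 7.72 in clone 4), although SWT stood at 9.61 and 11.01, so clone 2 was here the S98/102 clone nearest to SWT. *Sox13* was higher by 1.14. *Sox21* and *Sox5* each have other probes detected in clone 2 with smaller differences, of 1.25 and 0.55.

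Genes of extraembryonic endoderm were high in all 3 clones, and some of them higher still in clone 2. The transcription factors of the lineage had medians of 3.56 (clone 2), 3.24 (clone 1) and 3.18 (clone 4) above SWT. Of 11 measured, all 11 differences were above 0, 4 were called higher in clone 2 and none lower, and 7 were beyond the spread between arrays. *Foxa2*, a forkhead factor of endoderm, read 7.77 and 7.56 in clone 2, 5.54 and 5.58 in clone 1, 5.92 and 5.75 in clone 4 and 4.30 and 4.37 in SWT. *Hnf4a*, a nuclear receptor of visceral endoderm and liver, read 7.67 and 7.59 in clone 2 against 6.13 to 6.69 in clones 1 and 4. *Gata4* read 6.07 and 6.05 in clone 2 against 4.68 to 5.04, but it lies in the lower stretch of chromosome 14 described below. *Foxa2* was called by 1.97 (adjusted p = 0.014, limma), *Hnf4a* by 1.23 (adjusted p = 0.017, limma), *Gata4* by 1.24 (adjusted p = 0.015, limma) and *Cited1*, a transcriptional coactivator, by 2.15 (adjusted p = 0.018, limma). *Gata4* and *Foxa2* were not called without clone 1 (adjusted p = 0.076 and 0.072). *Gata6*, an early regulator of primitive endoderm, and *Dab2*, an endocytic adaptor, differed by 0.26 and 0.23 and did not pass.

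*Sox17*, an endoderm factor, read 10.74 and 10.77 in clone 2, 8.43 and 8.38 in clone 1 and 8.77 on both arrays of clone 4. Clone 2 did not overlap clones 1 and 4, as for 61.9% of all genes, and the difference of 2.17 had a standard error of 0.87 (adjusted p = 0.13, limma). The S113 clones, which enter the pooled spread, read 5.83 and 7.96, and with either of them left out the adjusted p of *Sox17* was 0.043. *Col4a1*, a collagen IV chain, stood likewise at 13.98 and 14.06 in clone 2, 12.24 to 12.64 in clones 1 and 4, and 9.44 and 11.68 in the S113 clones (difference 1.60, adjusted p = 0.28, limma). A fit with only the 3 S98/102 lines takes its spread from clones 1 and 4 alone, so it cannot decide whether *Sox17* or *Col4a1* passes.

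Basement membrane genes leaned the same way. All 16 measured differences were above 0 with a median of 1.31, 15 were beyond the spread between arrays, and 5 were called higher and none lower. The 5 were *Lamb1* (1.74), *Nid1* (1.57), *Nid2* (1.48), *Lamb2* (1.35) and *P4hb* (0.71), which encode laminin chains, nidogens that link laminin to collagen IV, and a subunit of collagen prolyl hydroxylase. *Nid2* read 11.63 and 11.48 in clone 2, 9.99 to 10.22 in clones 1 and 4 and 10.30 and 10.11 in SWT, so both arrays of clone 2 were above SWT and clones 1 and 4 were not. *Lamb1* read 9.15 and 9.60 in clone 2 and 7.34 to 7.97 in clones 1 and 4, with SWT at 4.64 and 5.11, so all 3 clones were above SWT.

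Among 14 genes of the endocytic and secretory endoderm, 4 were called higher (*Thbd*, *Fxyd3*, *Ctsh* and *Cited1*) and none lower, with a median of 0.45. *Thbd*, thrombomodulin, read 8.65 and 8.92 in clone 2, 6.30 and 6.13 in clone 4, and 4.48 and 4.50 in clone 1, where it was not detected. *Ttr*, the thyroxine carrier transthyretin, read 9.20 and 9.35 in clone 2, 7.80 and 7.34 in clone 4 and 5.04 and 5.19 in clone 1. The order of the clones was 2, 4, 1 for both, *Thbd* being called by 3.43 (adjusted p = 0.018, limma) and *Ttr* not (2.93, adjusted p = 0.053, limma). Lysosomal genes were higher too. Of 16, 6 were called higher (*Ctsb* by 1.73, *Lipa* by 1.22, *Lamp2* by 1.17, *Man2b1* by 1.13, *Grn* by 0.94 and *Asah1* by 0.77) and none lower, with a median of 0.73. *Ctsb*, cathepsin B, lies in the lower stretch of chromosome 14, and a second detected probe of *Asah1* differed by −0.29.

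Most contractile genes measured were higher in clone 2. Of 13 measured genes of the actin contractile group, 9 were called higher and none lower, with a median of 1.17. Against the spread between arrays 12 were higher and 1 lower. *Acta2*, smooth muscle actin, read 13.12 on both arrays of clone 2, 11.45 and 11.41 in clone 1, 11.36 and 11.50 in clone 4 and 10.28 and 9.86 in SWT. *Ccn2* (CTGF), a matricellular target of YAP, read 13.29 and 13.16 in clone 2 and between 10.86 and 11.71 in clones 1 and 4. *Acta2* was called by 1.69 (adjusted p = 0.0063, limma) and *Ccn2* by 1.97 (adjusted p = 0.014, limma), together with *Zyx* (1.57), *Ccn1* (1.52), *Cnn2* (1.46), *Actg2* (1.44), *Tagln* (1.06), *Tpm2* (0.95) and *Actn1* (0.58). Of 11 genes of mesenchyme and adhesion, *Twist1* (1.12), *Anxa1* (1.01) and *Cd44* (0.99) were higher and *Zeb1*, a repressor of epithelial genes, was lower (−1.38). Markers of embryonic fibroblasts, which can be present as feeder cells, moved slightly in the same direction. Of 8 such markers, 5 were detected on both arrays of clone 2, 3 of clone 1 and 4 of clone 4, with summed levels of 40.2, 37.6 and 39.5 against 37.5 in SWT. *Col1a1* was called by 0.73, while the fibroblast genes *Postn*, *Lum* and *Twist2* were detected on none of the 6 arrays. The part of such cells in these differences was not tested.

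Keratins and junction genes of simple epithelium gave 4 higher calls (*Cldn6*, *Cldn7*, *Esrp1* and *Lgals3*, the last in a lower run of chromosome 14) and 1 lower (*Krt17*) of 13. *Cldn6*, a tight junction protein of early embryonic epithelia, read 12.51 and 12.55 in clone 2, 9.49 and 9.57 in clone 1, and 10.68 and 10.78 in clone 4. It was called by 2.40 (adjusted p = 0.020, limma). *Krt19* and *Krt18*, keratins of simple epithelia, differed by 2.0 (adjusted p = 0.060, limma) and 1.06 (adjusted p = 0.19, limma) and were not called. Trophectoderm factors gave 1 call each way of 10, *Msx2* (1.80) and *Tfap2c* (−1.73), near the shares over all genes (9.09% higher, 8.19% lower). Of 6 placental genes none was called. *Psg23*, a pregnancy-specific glycoprotein of placenta, read 12.57 and 12.75 in clone 2 and 12.09 to 12.38 in clones 1 and 4, against 7.03 and 7.58 in SWT, so all 3 clones were far above SWT, with a difference of 0.44 between clone 2 and the others that did not pass the test (standard error 0.34, adjusted p = 0.41, limma). Of 7 genes of primitive streak and mesoderm none was called, and of 3 neuroectoderm genes only *Stmn2* was (−1.79), although *Nes* and *Map2*, at −0.37 and −0.29, were not.

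**Figure D3:**
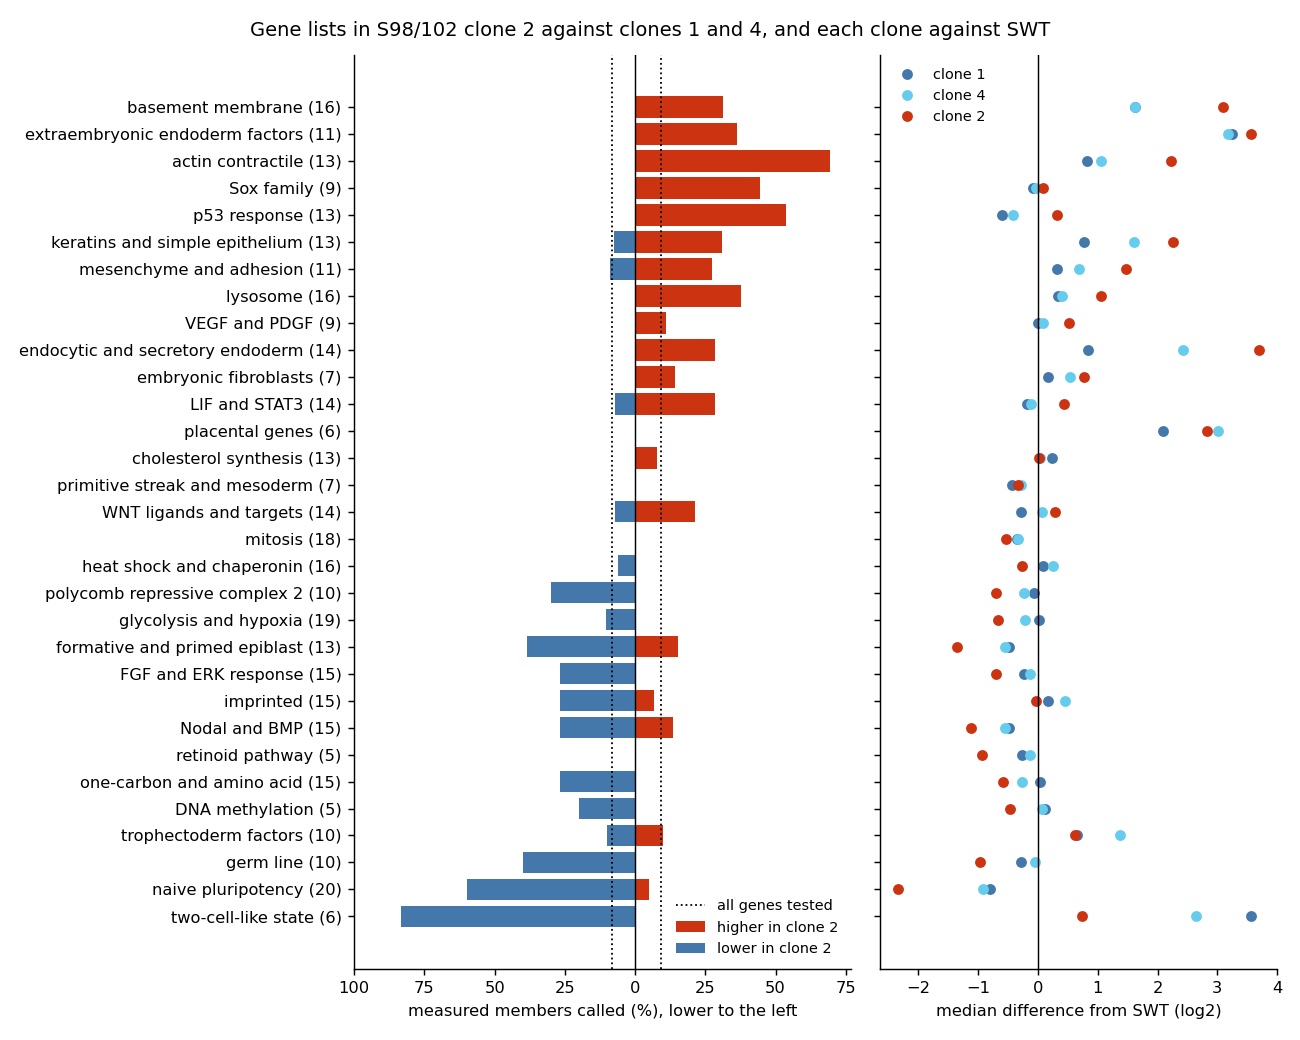
Left, the percent of measured members of each gene list with at least 5 (number in brackets) called higher (red) or lower (blue) in S98/102 clone 2 than in clones 1 and 4, with the percent over all genes tested as dotted lines. Right, the median log2 difference of each list from SWT in each clone; for naive pluripotency clone 2 lies at −2.34 and clones 1 and 4 at −0.80 and −0.92, and for the 2-cell-like state clone 2 lies at 0.74 and clones 1 and 4 at 3.56 and 2.64.

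Genes of the 2-cell-like state, a rare transcriptional state of ESC cultures that resembles the early cleavage embryo, had the lowest median of the lists, −2.32, and 5 of 6 were called lower in clone 2. For these 5 genes clones 1 and 4 were farther from SWT than clone 2 was. *Tcstv3* read 7.82 and 7.99 in clone 2, 10.59 and 10.69 in clone 1, 10.11 and 10.02 in clone 4, 6.44 and 6.23 in the SWT clones and 9.08 and 9.41 in the S113 clones. *Zscan4c*, of a family tied to telomere lengthening, read 8.0 and 7.70 in clone 2, 11.08 and 11.13 in clone 1 and 9.77 and 9.94 in clone 4. The differences of *Tcstv3* and *Zscan4c* were −2.45 (adjusted p = 0.0053, limma) and −2.63 (adjusted p = 0.038, limma), and *Tcstv1* (−2.36), *Usp17la* (−2.27) and *Tmem92* (−1.92) were called as well. *Zscan4c* was not called without clone 1 (adjusted p = 0.14). Most of these genes have close paralogs whose RNA a probe may also bind. Of 10 germ line genes, 4 were called lower and none higher, *Dppa3*, *Stra8*, *Tex19.1* (−1.66) and *Dazl* (−1.43), with a median of −1.0. *Stra8*, which gates entry into meiosis, read 4.52 and 4.50 in clone 2, where it was not detected, and 7.09 to 7.35 in clones 1 and 4.

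Several genes were not detected in clone 2. Not detected on either array of clone 2 but on all 4 arrays of clones 1 and 4 were 193 of the tested genes, 55 of them called, and 89 of the 193 were detected on all 10 arrays of SWT, S113 and TSS, 36 of these called. *F8a* on chromosome X, which encodes a huntingtin-associated protein, read 4.21 and 4.20 in clone 2, 7.31 and 7.57 in clone 1, 7.47 and 7.35 in clone 4, and 8.02 and 8.41 in the SWT clones. With clone 2 set to the lowest signal of detected probes on its arrays where that was higher, *F8a* was at least 6.71-fold lower in clone 2, *Stra8* at least 5.79-fold and *Pramel39*, of a multicopy gene family expressed in the germ line, at least 5.6-fold. *Krt42* and *Rhox10*, singled out after their values were seen, were at least 5.03-fold and 4.19-fold lower. The reverse, detection on both arrays of clone 2 and none of clones 1 and 4, held for 38 genes, of which 9 were called. The counts of 193 and 38 cannot be compared, because the filter asked for detection in 2 lines or more. Genes detected in clones 1 and 4 met it through these lines alone. Genes detected in clone 2 and in neither of the others had to be detected in a further line as well. Probes detected in clone 2 alone were removed. *Lyz2*, a lysozyme of macrophages and also chosen after its values were seen, read 6.95 and 6.87 in clone 2 and 4.48 to 4.62 in clones 1 and 4, at least 4.77-fold higher.

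Among genes called outside the lower stretch of chromosome 14, the largest rise was that of *Igf1*, insulin-like growth factor 1. It read 8.94 and 9.04 in clone 2, 4.85 and 5.06 in clone 1, 5.29 and 4.99 in clone 4, and 4.68 and 4.45 in the SWT clones. Clones 1 and 4 were near the SWT level and clone 2 far above it, by 3.94 over clones 1 and 4 (standard error 0.28, adjusted p = 0.0033, limma). Among called genes it was followed by *Slco3a1* (3.76), an organic anion transporter, *Thbd* (3.43), *Spon2* (3.43), an extracellular matrix protein, *Lyz1* (3.42), a lysozyme, *Rnase4* (3.24), a secreted ribonuclease, *Gkn2* (3.22), a gastrokine of the stomach, *Fst* (3.21), follistatin, which binds activin, *Slco2a1* (3.16), a prostaglandin transporter, and *Timp3* (3.11), a tissue inhibitor of metalloproteinases. *Spon2* read 11.75 and 11.69 in clone 2, 9.36 and 9.44 in clone 4, and 7.17 and 7.22 in clone 1, which stood at the level of SWT (6.87 and 7.13). *Gkn2* read 8.59 and 8.65 in clone 2, 6.55 and 6.52 in clone 4 and, undetected, 4.23 and 4.30 in clone 1. *Thbd* and *Gkn2* were undetected in clone 1, so that the floor enters their differences. In *Spon2* and *Gkn2* clone 4 lay between the other clones. *Lyz1* has 2 further probes that were detected in none of these arrays, and *Rnase4* lies in the second lower run of chromosome 14.

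Among genes detected on at least 1 array of clone 2, the largest called falls after *Dppa3* were those of *Actn2* (−3.21), a sarcomeric actinin, *Nlrp4c* (−3.10) and *Pramel37* (−2.92), germ line genes of multicopy families, *Cbr3* (−2.86), a carbonyl reductase, *Qprt* (−2.84), an enzyme of NAD synthesis, *Trim54* (−2.77), a muscle RING finger protein, and *Phlda2* (−2.74), an imprinted growth regulator of placenta. *Actn2* read 5.25 and 5.37 in clone 2, 8.52 and 8.66 in clone 1, 8.48 and 8.42 in clone 4, and 7.78 and 7.11 in the SWT clones. *Trim54* read 4.63 and 4.77 in clone 2 and 7.37 to 7.64 in clones 1 and 4, but SWT was at 6.19 and 6.15. Clones 1 and 4 were therefore above SWT and clone 2 below it. Of 15 imprinted genes, *Phlda2*, *Mest* (−1.80), *Ndn* (−1.54) and *Snrpn* (−0.97) were lower and *Peg3* (2.16) was higher. *Phlda2* and *Peg3* also differed between clones 1 and 4, at 9.05 and 9.30 against 10.96 and 10.74 and at 4.92 and 4.76 against 5.90 and 6.32.

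Signalling genes moved in both directions. Of 15 genes of the FGF and ERK response, 4 were lower (*Etv4* by −1.58, *Etv5* by −1.36, *Fgfr2* by −1.28 and *Spred1* by −0.67) and none higher. For *Fgfr2*, clone 2 (4.66) was near SWT (4.48), and clones 1 (6.36) and 4 (5.51) were above it. *Etv5*, an ETS factor induced by ERK, read 5.59 and 5.49 in clone 2, 6.76 to 7.05 in clones 1 and 4, and 8.19 and 8.10 in SWT. Of 15 Nodal and BMP genes, the Nodal target *Lefty2* (−2.0), *Gdf3* (−1.95), the co-receptor *Tdgf1* (−1.52) and *Nodal* (−0.92) were lower, and *Fst* (3.21) and *Inhba* (1.03), an activin subunit, were higher. *Lefty2* read 8.33 and 8.23 in clone 2, 10.13 to 10.41 in clones 1 and 4 and 10.88 and 11.02 in SWT. Of 14 WNT genes, *Wnt4* (2.56), *Porcn* (2.11), the acyltransferase of WNT ligands, and *Ccnd1* (1.41) were higher and *Wnt6* (−1.02) was lower. *Ccnd1* read 8.93 in clone 2, 7.26 in clone 1 and 7.78 in clone 4, all under SWT (10.85). In the VEGF and PDGF group the 1 call of 9 was *Nrp1* (2.55), a VEGF co-receptor, a share near the 9.09% of higher calls over all genes. *Flt1*, a VEGF receptor, read 11.11 and 10.92 in clone 2, 8.67 and 8.53 in clone 4 and 7.15 and 7.08 in clone 1 without passing (3.16, adjusted p = 0.056, limma). No retinoid gene of 5 was called.

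Genes of the p53 response were higher in clone 2, 7 of 13 with none lower and a median of 0.94. They were *Zmat3* (1.55), *Ei24* (1.30), *Phlda3* (1.11), *Ccng1* (1.09), *Trp53inp1* (1.07), *Btg2* (1.06) and *Bbc3* (0.82), which encodes the apoptosis factor PUMA. *Ei24* read 10.22 and 10.09 in clone 2, 8.74 and 8.89 in clone 1, 8.88 and 8.91 in clone 4, and 9.60 and 9.71 in the SWT clones. *Zmat3*, an RNA-binding protein, read 9.02 and 8.94 in clone 2, 7.24 and 7.03 in clone 1, 7.73 and 7.72 in clone 4 and 8.76 and 8.55 in the SWT clones. The median of the group was 0.32 from SWT in clone 2 and −0.60 and −0.42 in clones 1 and 4. *Cdkn1a* (p21) and *Mdm2*, targets that restrain the cell cycle and p53 itself, differed by 0.94 and 0.57 and did not pass.

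Amino acid and Polycomb genes had lower calls and no higher ones. Of 15 genes of amino acid and one-carbon metabolism, *Slc7a3*, a cationic amino acid transporter (−2.21), *Psat1* (−1.51), *Trib3* (−0.84) and *Mthfd2* (−0.83) were lower. *Slc7a3* read 6.32 and 6.35 in clone 2, 9.0 and 8.89 in clone 1, 8.17 and 8.12 in clone 4, and 12.08 and 12.70 in the SWT clones. Of 19 genes of glycolysis and hypoxia, *Pdk1* (−1.72) and *Hk1* (−0.98) were lower, a share near the 8.19% of lower calls over all genes. Of 10 Polycomb repressive complex 2 genes, *Mtf2* (−1.02), *Ezh2* (−0.82) and *Suz12* (−0.66) were lower, and of 5 DNA methylation genes *Dnmt3l* (−1.06) was. *Ezh2*, the H3K27 methyltransferase, read 9.08 and 9.24 in clone 2, 10.13 on both arrays of clone 1, 9.83 and 9.86 in clone 4 and 11.02 in both SWT clones. Of 16 heat shock and chaperonin genes 1 was called (*Tcp1*, −0.79), a share under that over all genes. Of 13 cholesterol genes 1 was higher (*Srebf2*, 1.17), near the 9.09% of higher calls over all genes. Of 18 mitotic genes none was called, with a median of −0.16. Of 13 formative and primed epiblast genes, *Lefty2*, *Etv4*, *Etv5*, *Pou3f1* (−1.01) and *Nodal* were lower and *Cldn6* and *Sall2* higher.

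Chromosome 14 stood apart. Of its 316 tested genes, a run of 111 from *Ngdn* to *Enox1* was lower in clones 1 and 4. This lower stretch was found from clones 1 and 4 alone, as the longest run of windows of 21 genes whose median lay under −0.3 from the mean of the SWT and S113 clones. Its median difference from those lines was −0.66 in clone 1, −0.66 in clone 4, 0.05 in clone 2 and −0.03 in TSS. Below the SWT and S113 mean were 89 of the 111 genes in clone 1, 86 in clone 4 and 55 in clone 2. A second run of 60 genes, from *Mmrn2* to *1700123O20Rik*, lay 6 genes away and had medians of −0.68, −0.65 and 0.02 in clones 1, 4 and 2. In the remaining 145 genes of the chromosome the medians were −0.03 in clone 1, 0.04 in clone 4 and −0.07 in clone 2. Among them clone 1 had a further low run of 15 genes, from *Uchl3* to *Rap2a*, with a median of −0.39.

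As the runs were chosen for low values in clones 1 and 4, higher levels of their genes in clone 2 are a description. In the lower stretch 50 of 111 genes (45.0%) were called higher in clone 2 and 1 (*Phf11a*) lower. In the second run 33 of 60 (55.0%) were higher and none lower, while in the rest of the chromosome 6 of 145 (4.14%) were higher and 14 (9.66%) lower. Over the other chromosomes 757 of 8987 genes (8.42%) were higher and 747 (8.31%) lower. With the lower stretch left out before the fit, 785 genes were called higher and 748 lower, and with both runs left out 743 and 735. Most calls of clone 2 lay on other chromosomes.

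**Figure D4:**
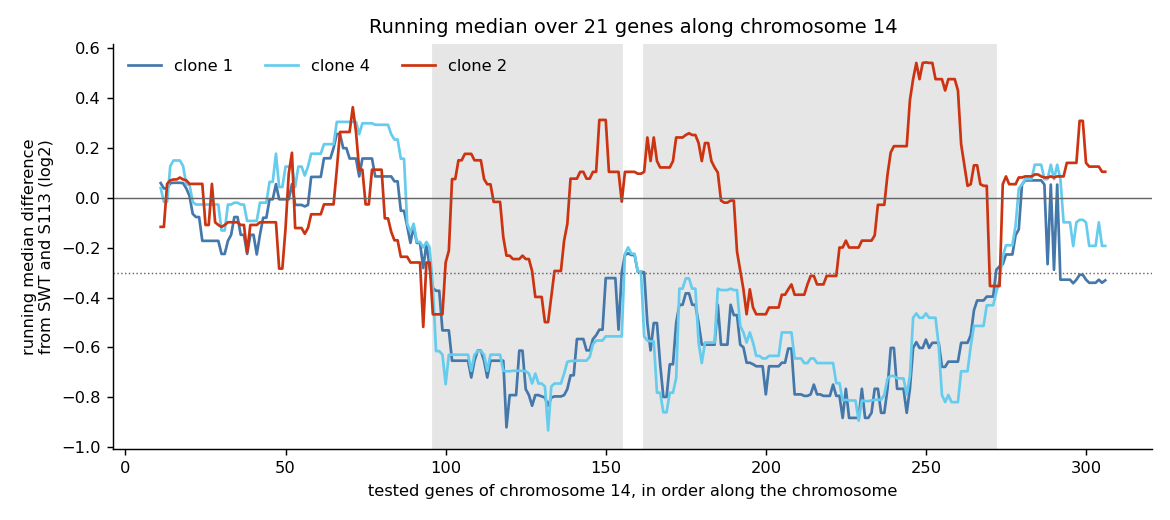
Running median over 21 tested genes of the log2 difference from the mean of the SWT and S113 clones, in gene order along chromosome 14, for S98/102 clones 1, 4 and 2. Grey bands mark the 2 runs in which clones 1 and 4 lie under −0.3 (dotted line); clones 1 and 4 follow each other there, at medians of −0.66 in the longer run, while clone 2 lies on both sides of 0.

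The largest differences inside the stretch were those of *Bmp1* (3.27), a procollagen protease, *Clu* (3.22), the secreted chaperone clusterin, *Nudt18* (3.0), a nucleotide hydrolase, *Loxl2* (2.93), a collagen cross-linking oxidase, and *Ltb4r1* (2.71), a leukotriene receptor. *Nudt18* read 10.99 and 11.02 in clone 2, 7.67 and 7.66 in clone 1, 8.40 and 8.28 in clone 4, and 8.23 and 8.22 in the SWT clones. *Loxl2* read 8.01 and 7.85 in clone 2, 4.95 to 5.06 in clones 1 and 4, and 5.69 and 5.12 in the SWT clones. For *Nudt18* and *Loxl2*, clone 2 was far above SWT, while clones 1 and 4 were near or under it. The share of the low run in these differences was not tested. *Clu* read 13.43 and 13.45 in clone 2, 11.41 and 11.60 in clone 4 and 8.87 and 9.0 in clone 1, all above SWT (7.08 and 6.95). Within the same stretch clone 2 had a shorter low run of its own, 30 genes from *Ift88* to *Ints9* with a median of −0.38, and a high one, 16 genes from *Pdlim2* to *Itm2b* with a median of 0.56. On the other chromosomes, clone 2 had 19 low and 6 high runs of at least 20 genes, clone 1 2 and 0, and clone 4 4 and 3. The cut was the same for each clone, while clone 2 lay farther from SWT over all genes (root mean square 1.11 against 0.75 and 0.81). Its median on the other chromosomes was −0.07, against −0.01 in clone 1 and in clone 4. How far this raised its count of runs was not tested. The longest run of clone 2 was a low one of 55 genes of chromosome X from *Psmd10* to *Pir* (median −0.36). The next, 46 genes of chromosome 13 from *Stard3nl* to *H2bc3* were low in clone 2 (median −0.72) and in clone 4 (−0.69). Another region of chromosome X was low in clones 1 and 4 together, 25 genes from *Wdr45* to *Mid1ip1* with a median of −0.62 in their mean. In clone 1 it spanned the same 25 genes (−0.59) and in clone 4 20 of them from *Pim2* (−0.80), while 10 genes at its start, from *Wdr45* to *Pcsk1n*, were a high run in clone 2 (0.81).

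For genes called outside the stretch, SWT was mostly on the side of clones 1 and 4. The SWT mean was nearer to clones 1 and 4 than to clone 2 for 681 of 796 genes called higher (85.6%) and 622 of 761 called lower (81.7%), beside 69.4% of all genes. Inside the stretch it was nearer for 23 of the 50 genes called higher. The 5 called 2-cell-like genes above and *Sox21* were examples of the opposite, with clone 2 the nearest of the 3 clones to SWT.

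The largest differences between clones 1 and 4 were the following. *Magea2* and *Magea5*, X-linked cancer-testis genes with similar sequences, read 6.88 and 6.90 and 6.39 and 6.63 in clone 1, but 9.49 and 9.55 and 9.05 and 9.13 in clone 4. In clone 2 they read 6.06 and 5.99 and 5.68 and 5.61, the lowest of the lines, while SWT read 10.91 and 11.60 for *Magea2*. The difference of clone 1 from clone 4 was −2.63 for *Magea2* (adjusted p = 8.6e-11 against the array spread, limma), −2.57 for *Clu* and −2.45 for *Ttr*. Above clone 4 in clone 1 were *Ly6g6e* (1.68), *Dnajc6* (1.58), a clathrin uncoating factor, *H2-Ab1* (1.54), a class II histocompatibility chain, and *Isg15* (1.44), an interferon-induced ubiquitin-like protein. *Ly6g6e* read 10.24 and 10.18 in clone 1, 8.51 and 8.54 in clone 4 and 8.57 and 8.80 in clone 2, so clone 2 was nearer to clone 4 for it.

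The labelled cell type was checked against markers. All 7 ESC markers were detected on both arrays of each clone, with summed levels of 66.5, 76.4 and 76.5 in clones 2, 1 and 4 against 80.7 in SWT, and so were all 9 extraembryonic endoderm markers on the arrays (103.2, 93.8 and 95.1 against 64.4). Of 7 trophectoderm markers, 5 were detected on both arrays of each clone. *Cdx2*, *Krt8*, *Krt18* and *Gata3* were above SWT in all 3 clones. *Tfap2c* was below SWT (11.19) in clone 2 (9.03) and clone 1 (10.37) and at its level in clone 4 (11.16). *Nes* of neuroectoderm and *Eomes* of mesoderm were also detected on all 6 arrays, and *Sox1* and *Neurog2* of neuroectoderm on some. *Elf5* and *Hand1* of the trophoblast, *Pax6* of neuroectoderm, *Mesp1* and *Kdr* of mesoderm and *Ptprc* of blood were detected on none of the 6 arrays.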

How the data were processed

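Each of 8 lines was measured on 2 Illumina mouse bead arrays. The authors deposited scanner intensities of 25697 probes, summarized with BeadStudio 3.2 and not normalized, and a detection p-value for each. They also deposited normalized log2 values, for which the labels name RMA and lumi. Aligner and genome build do not apply, and the probe positions are not given in the sources used here.

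The function neqc (limma 3.58.1, R 4.3.3) subtracted a background estimated through the detection p-values, added an offset of 16, took log2 and applied quantile normalization. A probe entered if it named a gene and, in 2 lines or more, had a detection p under 0.05 on each array. The brightest probe represented a gene, giving 9303 genes. A gene on in clone 2 alone does not pass this filter. Names and gene order came from RefSeq by Entrez identifier (23962 of 23978 probes with a gene). Line means were fitted with lmFit and eBayes (5 arms, 3 residual degrees of freedom). A second fit used single arrays. P-values are two-sided and Benjamini-Hochberg adjusted. Fits were also run on simulated data in which clone 2 had the same spread as the other lines, so these runs cannot check that assumption.

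Named genes were *Sox2*, *Pou5f1*, *Nanog*, *Esrrb*, *Utf1*, *Fgf4*, *Zfp42* and *Klf4*, the 10 largest called rises and falls outside the chromosome 14 stretch, the 5 largest differences inside it, per list, the 4 members of lowest p, and the 4 largest differences each way between clones 1 and 4. Others of a list are named where few were called. The members, lists and rules were chosen with earlier results of these data known, and no list was tested as a set. Folds for undetected genes are bounds over the lowest detected signal. Alternatives varied values, filter, probe summary, model and the samples included. The number of arrays limits the precision.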

Additional observations from a re-analysis of the deposited data

Results flagged for a closer look

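A signal appeared among probes that the detection filter removed. At a detection p under 0.01 on both arrays of 1 line and of at least 0.05 on the other 14 arrays, 47 probes were found in clone 2, 0 in clone 1, 8 in S98/102 clone 4, 12 in TSS and between 0 and 3 in each SWT or S113 clone. They entered no test. The widest gaps to the other arrays were those of a further probe of *Slco3a1* (6.56 and 6.34 in clone 2, at most 4.59 elsewhere), *Hamp*, the iron hormone hepcidin (6.33 and 6.13, at most 4.46), and *Tff1*, a trefoil peptide of the stomach (6.07 and 6.01, at most 4.46).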

How the results depend on the processing

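Of the 183 genes whose clone 2 difference is reported, none changed direction under those of the 33 alternatives in which it was tested. Many of these alternatives could not reverse a difference. Those that left out arrays or lines other than the S98/102 clones, or changed only how the spread was estimated, kept the same difference. Many of the 183 were also named for large differences or low p in these same data. The lack of reversals is therefore weak evidence of a stable direction. The stricter detection filter tested 164 of the 183. Of the 183, 136 were called and 45 stayed called wherever tested; 81 lost the call without clone 1, 32 without clone 4, 32 without either SWT clone, 56 in the deposited values and 48 without the detection filter. The genes called higher and lower (846 and 762) were 376 and 474 in the deposited log2 values, of which 368 and 410 were shared. They were 1364 and 1489 with arrays fitted with the line as a random block, and 1324 and 1441 with a replicate block added. With a median shift the lower calls were 1349. Array numbers are not a pairing: deviations of same-numbered arrays correlated between −0.17 and 0.05 among the S98/102 clones. With a replicate block the array test gave 1861, 2114 and 1434 calls. Without 1 SWT clone the lower calls were 504. With 1 array or line left out, higher calls ranged from 195 to 940 and lower calls from 146 to 860, and the array test gave 1612 to 1709, 1774 to 1887 and 757 to 1415. The fit without both runs of chromosome 14 was chosen after seeing the data. Levels near the detection floor, as of *Fgf4*, cannot be ordered, and with clone 2 as 1 line no spread between clones of its kind was measured.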
